A study of Mus musculus with 36 samples.

Results

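The collagen gene family was described in sorted cells of the fetal mouse gonad. Its members were all genes with a probe set of a single platform symbol of the form Col, number, a, number, and where a gene had several, the probe set with the highest average signal was used. This rule found 44 collagen genes among the 19938 genes of the table, and all 44 passed the filter on dim signals, as did 17571 genes in all. Germ cells were measured on Affymetrix Mouse Gene 1.0 ST arrays, whose probes lie along the whole transcript, and so were supporting cells, the somatic lineage that forms Sertoli cells in a testis or pregranulosa cells in an ovary. The 12 groups, of 3 arrays each, were both cell types from XX and XY gonads at TS13, TS24 and TS34. By the labels, TS13 lies before sexual differentiation, TS24 during it and TS34 after it. Germ cells of both sexes were sorted by an Oct4 reporter from progeny of C57BL/6NJ on a mixed background. XX supporting cells at the 3 stages and XY supporting cells at TS13 came from the Tg(Sry-EGFP)92Ei line, in progeny of CD-1. XY supporting cells at TS24 and TS34 came from Tg(Sox9-cre/ERT2)1Msan/J, in progeny of C57BL/6. All cells came from gonads pooled by sex, treated with trypsin, stained with DAPI and sorted by fluorescence. The comparison of XY with XX supporting cells at TS13, the steps between stages in XX supporting cells and the step from TS24 to TS34 in XY supporting cells were each made within 1 line. Sex and line cannot be told apart in supporting cells at TS24 and TS34, nor stage and line from TS13 to TS24 in XY supporting cells. The labels do not say whether the 3 arrays of a group came from separate pools, so the p-values measure the spread between these arrays, which may be technical.

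Collagens are mostly secreted proteins whose chains wind into triple helices. Fibrillar collagens form the ropes of connective tissue, collagen IV forms the network of basement membranes, and collagen VI forms beaded filaments near cells. The fibril-associated collagens with interrupted helices (FACIT), among them collagens IX, XII and XIV, sit on the surface of fibrils, and multiplexins such as collagen XVIII lie in or near basement membranes. In the fetal testis, Sertoli cells enclose the germ cells in cords, and a basement membrane is laid down around each cord.

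The sequences shown are those before the annotated starts of Col9a1, Col9a2 and Col18a1, because these genes were higher together in XY supporting cells. RefSeq promoter windows (GRCm38.p6) were given for 35 of the 44 genes, and Col9a3, Col12a1 and Col14a1 had none. Each line gives the 250 bases before a start, 5′ to 3′ on the gene's strand, with capitals for matches to the motifs searched. Col9a1 has a pair of starts on the plus strand of chromosome 1, with windows at chr1:24177360-24177609 and chr1:24194953-24195202. Col9a2 starts on the plus strand of chromosome 4, at chr4:121039316-121039565. Col18a1 has a pair of starts on the minus strand of chromosome 10, at chr10:77166531-77166780 and chr10:77113706-77113955.
Col9a1, first start: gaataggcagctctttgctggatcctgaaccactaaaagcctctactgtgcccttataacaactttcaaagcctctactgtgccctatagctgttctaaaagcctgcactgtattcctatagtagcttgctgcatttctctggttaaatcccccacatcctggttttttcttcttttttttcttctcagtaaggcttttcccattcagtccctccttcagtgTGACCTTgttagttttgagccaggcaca
Col9a1, second start: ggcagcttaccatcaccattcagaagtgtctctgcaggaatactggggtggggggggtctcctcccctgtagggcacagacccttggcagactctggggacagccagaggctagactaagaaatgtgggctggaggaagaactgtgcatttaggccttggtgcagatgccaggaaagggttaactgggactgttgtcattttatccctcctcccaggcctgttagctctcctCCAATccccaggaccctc
Col9a2: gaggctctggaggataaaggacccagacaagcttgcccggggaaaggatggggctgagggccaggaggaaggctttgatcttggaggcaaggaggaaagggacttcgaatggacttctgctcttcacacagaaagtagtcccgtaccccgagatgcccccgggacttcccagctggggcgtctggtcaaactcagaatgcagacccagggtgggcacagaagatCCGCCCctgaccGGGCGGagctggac
Col18a1, first start: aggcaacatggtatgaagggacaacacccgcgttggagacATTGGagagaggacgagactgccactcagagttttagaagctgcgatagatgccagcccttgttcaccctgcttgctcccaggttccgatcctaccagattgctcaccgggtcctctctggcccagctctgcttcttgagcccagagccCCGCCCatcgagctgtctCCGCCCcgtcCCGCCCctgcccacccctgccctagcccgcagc
Col18a1, second start: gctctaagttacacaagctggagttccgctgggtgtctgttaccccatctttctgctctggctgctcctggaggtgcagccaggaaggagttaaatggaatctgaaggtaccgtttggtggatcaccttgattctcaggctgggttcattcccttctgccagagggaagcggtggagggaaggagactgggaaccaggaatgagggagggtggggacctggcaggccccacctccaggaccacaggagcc
The capitals mark a site of the kind bound by NR5A1 (AAGGTCA, here as TGACCTT) before the first Col9a1 start and a CCAAT box before the second. They mark 2 GC boxes (GGGCGG or CCGCCC) before Col9a2, and 3 GC boxes and 1 CCAAT box, read as ATTGG, before the first Col18a1 start. The second Col18a1 window held none of the 5 motifs searched, which also included the SOX core ACAAT and the GATA motif AGATAA. Both strands were searched, and no matches overlapped in the printed windows. The 32851 windows of the RefSeq table were each 300 bases long and reached 50 bases past the start. Only the 250 bases before the start were searched. There ACAAT occurred in 27.7% of the windows, AGATAA in 9.99%, AAGGTCA in 4.08%, GGGCGG in 32.7% and CCAAT in 33.8%. Among the 38 windows of collagen genes these motifs occurred in 2, 2, 5, 22 and 13 windows. The 8 windows of the 6 genes with a window that were called in XY against XX supporting cells (Col4a1, Col4a2, Col9a1, Col9a2, Col18a1 and Col27a1) held no match to the SOX core or the GATA motif. Their GC content ran from 43.6% before the first Col9a1 start to 74.4% before Col4a1, against a median of 52.4% over all windows. Only the first Col9a1 window lay below that median. The part of GC content in the motif counts was not tested. Col4a1 and Col4a2 start next to each other on opposite strands. Their full windows of 300 bases shared 78 bases, whereas the searched parts before the starts did not overlap. A match is a string of letters and was not tested for binding.

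The arrays were checked against their labels with marker lists. The mean of 8 germ cell markers lay between 10.41 and 11.08 on the log2 scale on the 17 germ cell arrays used, and between 5.67 and 7.03 on the 18 supporting cell arrays. XX germ cell replicate 3 at TS24 read 5.86 for these markers and 9.15 for stromal markers, against 6.29 to 6.90 on the supporting cell arrays, so it went against its label and was left out, which leaves 2 arrays in that group. In supporting cells at TS24 and at TS34, 9 of 9 Sertoli markers (Sox9, whose line gave the XY cells, among them) were higher in XY and 6 of 7 pregranulosa markers were lower. At TS13 these counts were 6 and 5. The array medians ranged from 6.41 to 6.84, and the precision is limited by the number of arrays: the median standard error of a difference between groups of 3 was 0.21 over all genes.

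Most collagen genes varied little over the 12 groups. The gap between the highest and the lowest group mean exceeded 1 log2 unit in 9 of the 44 genes (20.5%), against 42.2% of all genes tested, and the median gap was 0.59, against 0.86 over all genes. Col12a1 had the widest gap, 4.86, and Col14a1 followed with 4.08, Col18a1 with 2.66 and Col9a3 with 2.11. Col9a2, Col9a1, Col6a1, Col4a1 and Col27a1 had gaps between 1.09 and 1.44. The other 35 genes ranged from 0.30 in Col22a1 to 0.95 in Col4a2. A small gap on an array does not show that a gene was off, because the background signal of each probe set is unknown. In the heat map of group means, the strong colours lie in the supporting cell columns and in the FACIT and multiplexin rows.

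**Figure D1:**
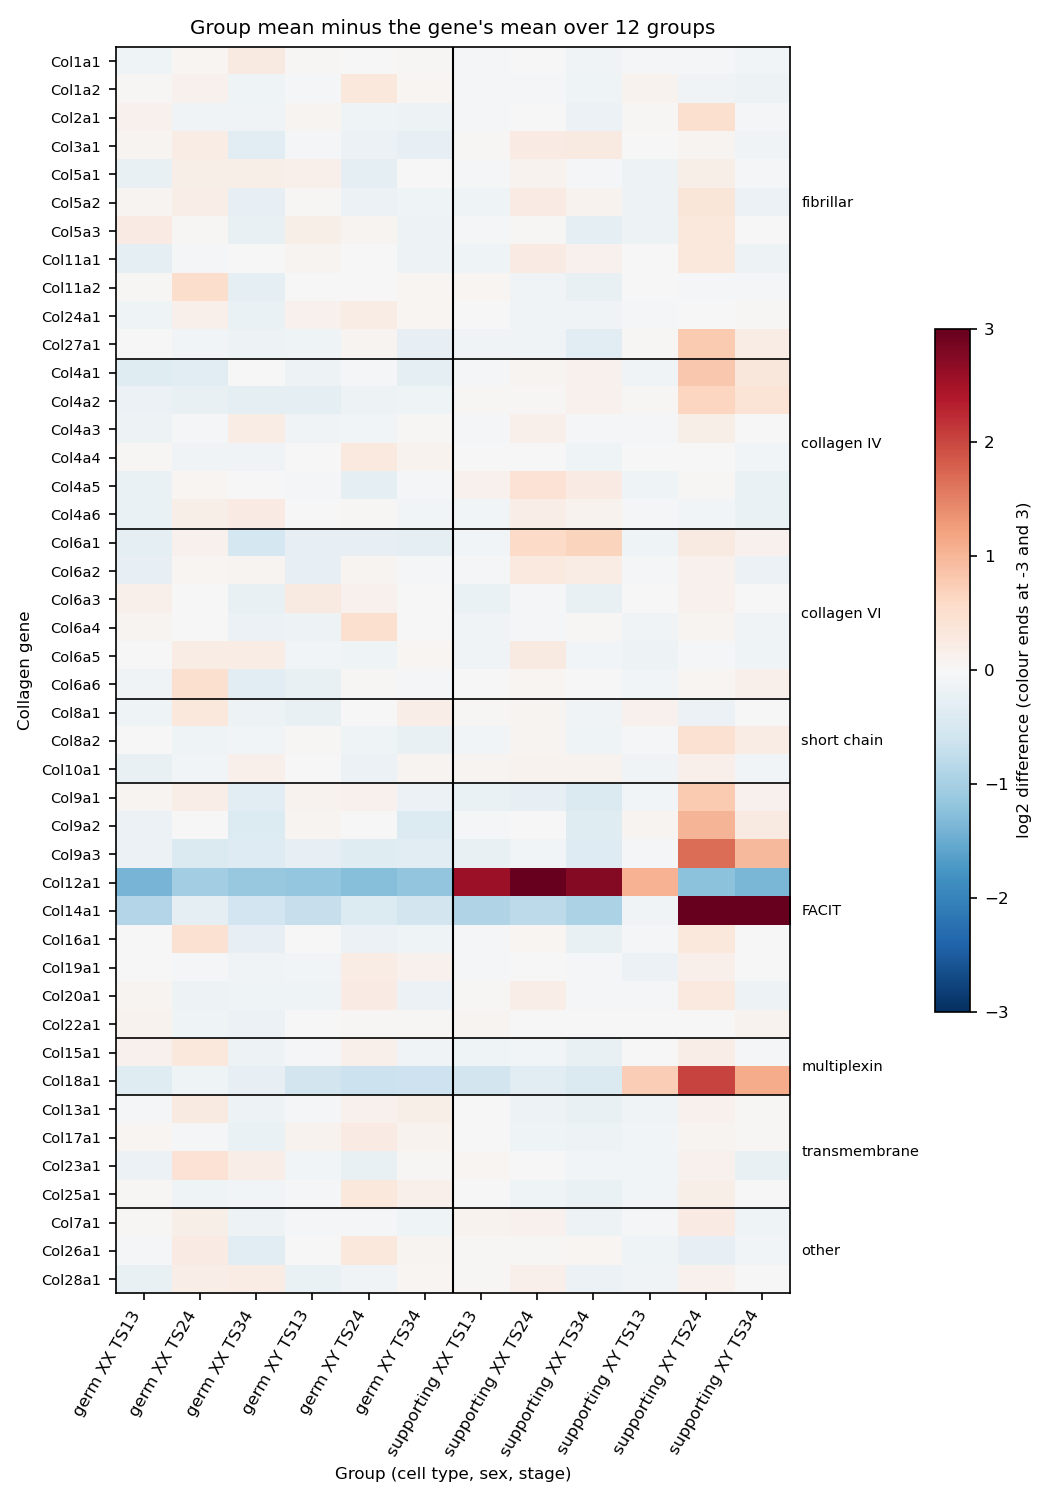
Heat map of the 44 collagen genes (rows, by class) in the 12 groups (columns), coloured by the group mean minus the gene's mean over the groups in log2 units, with colours ending at -3 and 3. Col12a1 is high in XX supporting cells and Col14a1 in XY supporting cells at TS24 and TS34, while most other rows are pale.

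The first comparison asked which collagen genes differed between XY and XX supporting cells at each stage, as the testis and ovary fates separate. Called means an adjusted p below 0.05 from limma's moderated test, by the Benjamini-Hochberg method with all 17571 genes. At TS13, 2 collagens were higher in XY and 1 was lower, where 3.78% of all genes were called, 1.84% as higher and 1.94% as lower. At TS24, 8 were higher and 1 was lower, where 15.3% of all genes were called, 9.75% as higher and 5.58% as lower. At TS34, 4 were higher and 1 was lower, where 14% of all genes were called, 8.24% as higher and 5.74% as lower. The median difference of the 44 genes was 0.10 at TS24 and 0.11 at TS34, against 0.04 and -0.01 over all genes. The 3 XY arrays lay entirely above the 3 XX arrays in 4 collagens at TS13, 9 at TS24 and 12 at TS34, where 6.97%, 14.3% and 19.8% of all genes did so. They lay entirely below in 4, 2 and 9 collagens, where 16.1%, 7.85% and 18.8% of all genes did so. The steroidogenic markers moved in the same comparison: 4 of 4 tested were higher in XY at TS34, with a mean of 6.91 to 7.21 on the XY arrays and 5.66 to 5.74 on the XX arrays, 1 of 4 was higher at TS24, and 1 of 4 was lower at TS13. Of 7 stromal markers tested, 1 was higher and 1 lower at TS13, 2 and 2 at TS24, and 1 was higher at TS34. Of 8 endothelial markers, 0 were called at the 3 stages in this limma test. The 5 macrophage markers and 5 mesonephric epithelium markers tested also had 0 calls. Of 4 erythroid markers, 2 were higher at TS24 and 1 at TS34, with a mean at TS24 of 7.41 to 8.56 on the XY arrays and 6.18 to 7.80 on the XX arrays. Of 8 germ cell markers, 1 was lower in XY at TS24 and 2 at TS34. The part of these markers in the collagen differences was not tested.

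**Figure D2:**
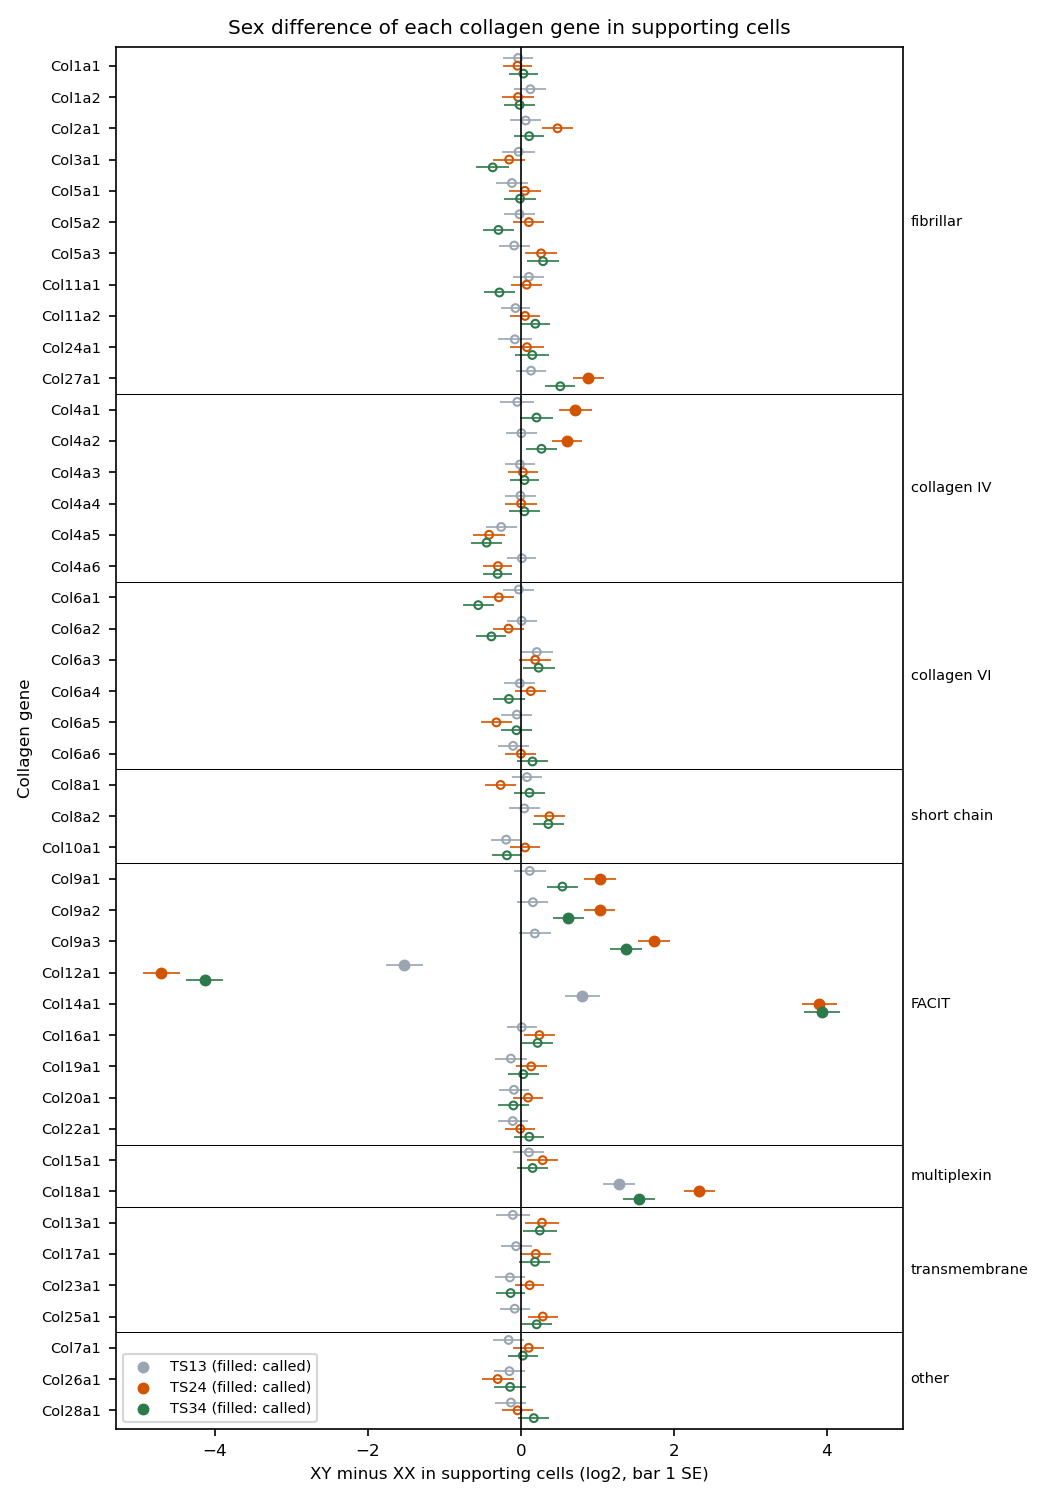
Difference between XY and XX supporting cells in each of the 44 collagen genes at TS13, TS24 and TS34, in log2 units with bars of 1 standard error and filled points for called differences. Col12a1 lies far to the left and Col14a1, Col18a1 and Col9a3 to the right, and the fibrillar rows other than Col27a1 are unfilled at the 3 stages.

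Col12a1, which encodes the fibril-associated collagen XII, was the collagen with the largest sex difference and the one called as lower in XY supporting cells in the limma test above. At TS13 the XX arrays read 10.00, 10.04 and 9.89, and the XY arrays read 9.08, 8.65 and 7.63. At TS24 the XX arrays read 11.13, 11.07 and 10.46, and the XY arrays read 5.80, 6.44 and 6.31. At TS34 the XX arrays read 10.02, 10.14 and 10.37, and the XY arrays 6.12, 5.85 and 6.17. Every XY array lay below every XX array at each stage, and the XY arrays of TS24 and TS34 fell within the range of the germ cell arrays, 5.86 to 6.74, or just under it. XY was lower by a log2 difference of -1.52 ± 0.24 (SE, 3 arrays against 3, limma adjusted p = 1.26e-05) at TS13, a difference within the Tg(Sry-EGFP)92Ei line. The difference was -4.70 ± 0.24 (limma adjusted p = 1.55e-21) at TS24 and -4.13 ± 0.24 (limma adjusted p = 2.12e-19) at TS34. No fold is given, because the XY arrays of those stages lay at the germ cell level, which is not known to be above the background of this probe set. The 3 XY arrays at TS13 spread over more than 1 log2 unit, and the difference ranged from -1.84 to -1.11 when each of the 6 arrays was left out in turn, keeping its call each time.

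Across stages, Col12a1 fell from TS13 to TS24 in XY supporting cells by a log2 difference of -2.27 ± 0.24 (limma adjusted p = 3.86e-10), a step that also changes the line. It rose in XX supporting cells by 0.91 ± 0.24 (limma adjusted p = 0.0185), within 1 line. The rise in XX kept its call without XX replicate 2 at TS13 and without XX replicate 3 at TS24, and lost it without each of the other 4 arrays, with values of 0.79 to 1.13 over the 6 fits. It also lost its call after quantile normalization (0.77, adjusted p = 0.0537). From TS24 to TS34 the differences of -0.71 in XX and -0.14 in XY were not called.

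Col14a1, which encodes collagen XIV, a FACIT related to collagen XII, had the opposite pattern and was the collagen most raised in XY supporting cells. At TS13 the XX arrays read 6.87, 6.60 and 6.70, and the XY arrays read 7.30, 7.68 and 7.61. At TS24 the XX arrays read 7.40, 6.78 and 6.36, and the XY arrays 10.73, 10.80 and 10.73. At TS34 the XX arrays read 6.49, 6.83 and 6.71, and the XY arrays 10.53, 10.67 and 10.64. The XY arrays were above the XX arrays at each stage, and at TS24 and TS34 they were also above every germ cell array, which ranged from 6.65 to 7.98. XY was higher by 3.91 ± 0.23 log2 units at TS24 (limma adjusted p = 3.28e-19) and by 3.94 ± 0.23 at TS34 (limma adjusted p = 2.85e-19). At TS13 XY was higher by 0.81 ± 0.23 (limma adjusted p = 0.0332), and this small difference kept its call without XY replicate 1 and lost it without each of the other 5 arrays, with values of 0.73 to 0.92. It also lost its call when all 36 arrays were used (adjusted p = 0.0734). From TS13 to TS24 Col14a1 rose in XY supporting cells by 3.22 ± 0.23 (limma adjusted p = 2.09e-15). In XX supporting cells that step was 0.12 and was not called.

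The chains of collagen IX, a FACIT known from cartilage and made of 3 different chains, were higher together in XY supporting cells at TS24. Col9a3 read 8.47, 8.33 and 8.34 on the XX arrays and 10.59, 9.76 and 10.01 on the XY arrays. Col9a2 read 8.27, 8.24 and 8.23 in XX and 9.65, 9.17 and 9.02 in XY. Col9a1 read 6.999, 6.84 and 6.72 in XX and 8.55, 7.56 and 7.55 in XY. In each gene the XY arrays were above the XX arrays, and XY replicate 1 was the highest. The differences were 1.74 ± 0.21 for Col9a3 (limma adjusted p = 2.64e-09), 1.03 ± 0.20 for Col9a2 (9.79e-05) and 1.04 ± 0.21 for Col9a1 (1.37e-04). They kept their calls without XY replicate 1, at 1.503, 0.85 and 0.71, which were the lowest values over the 6 fits that each leave out 1 array. At TS13, within 1 line, the differences were 0.18, 0.16 and 0.12 and none of the 3 was called by limma, nor had an unadjusted p under 0.05.

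At TS34 the difference of Col9a3 was 1.38 ± 0.21 (limma adjusted p = 8.38e-07), from XX arrays of 8.38, 7.91 and 7.89 and XY arrays of 9.22, 9.71 and 9.38. That of Col9a2 was 0.62 ± 0.20 (limma adjusted p = 0.0275), from XX arrays of 8.14, 7.70 and 7.85 and XY arrays of 8.50, 8.50 and 8.57. Col9a2 kept this call without XX replicate 1 and lost it without each of the other 5 arrays, at values of 0.52 to 0.74. Col9a1 differed by 0.55 ± 0.21 and was not called (limma adjusted p = 0.074), though its arrays did not overlap, and it was called after quantile normalization (0.57, adjusted p = 0.0169). From TS13 to TS24 in XY supporting cells the 3 genes rose by 1.70, 0.93 and 0.87 for Col9a3, Col9a2 and Col9a1. From TS24 to TS34, within 1 line, Col9a2 fell by 0.76 ± 0.20 (limma adjusted p = 0.0437). Col9a3 and Col9a1 differed over that step by -0.68 and -0.67 and were not called. The fall of Col9a2 kept its call without XY replicate 2 or 3 at TS24 and lost it without each of the other 4 arrays.

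Col18a1, which encodes collagen XVIII, the basement membrane multiplexin whose end fragment is endostatin, was higher in XY supporting cells at every stage. At TS13 the XX arrays read 7.57, 7.43 and 7.54, and the XY arrays read 8.46, 8.87 and 9.07. At TS24 they read 7.96, 7.67 and 7.61 in XX and 9.84, 10.13 and 10.28 in XY. At TS34 they read 7.59, 7.75 and 7.53 in XX and 9.12, 9.17 and 9.24 in XY. The groups did not overlap at any of the 3 stages. XY was higher by 1.29 ± 0.21 at TS13 (limma adjusted p = 1.58e-05), within the Tg(Sry-EGFP)92Ei line. The difference was 2.34 ± 0.21 at TS24 (3.22e-13) and 1.55 ± 0.21 at TS34 (5.09e-08). In XY supporting cells Col18a1 rose from TS13 to TS24 by 1.29 ± 0.21 (limma adjusted p = 5.95e-06) and fell from TS24 to TS34 by 0.91 ± 0.21 (0.0123), the latter within 1 line. The fall kept its call without XY replicate 1 or 2 at TS24 or XY replicate 3 at TS34, and lost it without each of the other 3 arrays, with values of -1.03 to -0.81. It was not called after quantile normalization (-0.73, adjusted p = 0.0773). In XX supporting cells the steps were 0.24 and -0.12 and were not called. Col15a1, the other multiplexin, differed by 0.11, 0.29 and 0.16 between XY and XX at the 3 stages and was not called.

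**Figure D3:**
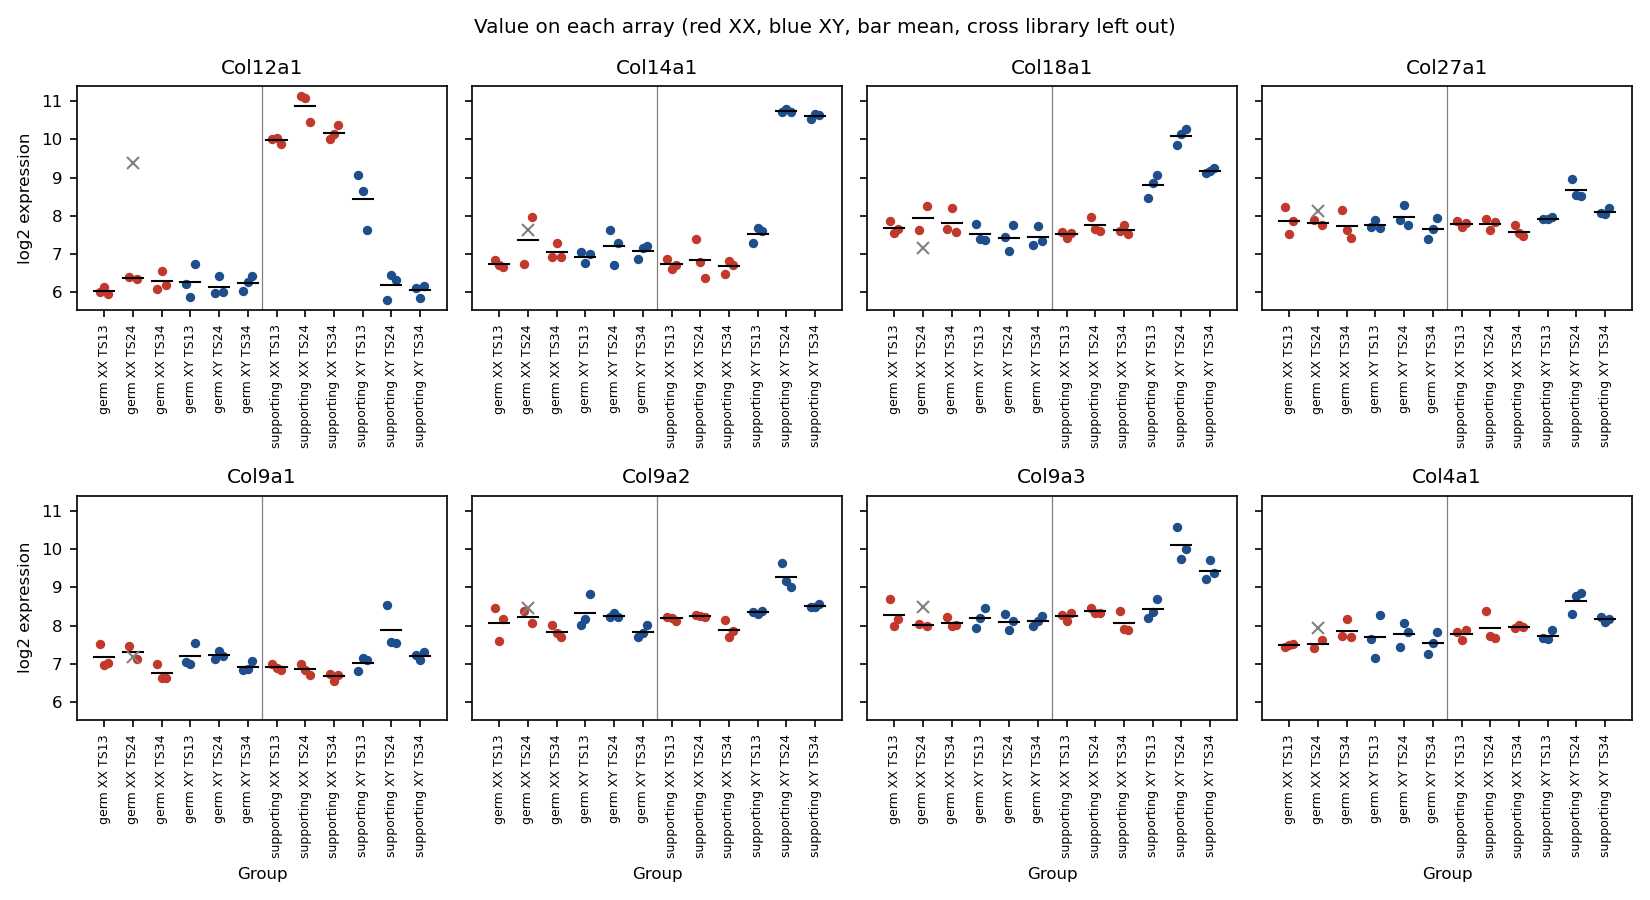
Log2 expression of 8 collagen genes on each of the 36 arrays, by group, with XX in red, XY in blue, bars for group means and a cross for the XX germ cell library left out. XX and XY supporting cells separate in Col12a1, Col14a1 and Col18a1 at each stage, whereas germ cell groups of the 2 sexes overlap or lie close together.

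Of the 11 fibrillar collagens, Col27a1 was the gene called between XY and XX supporting cells, at TS24. Its XX arrays read 7.91, 7.62 and 7.85 and its XY arrays 8.97, 8.55 and 8.51, a difference of 0.88 ± 0.20 (limma adjusted p = 7.02e-04). At TS34 its difference was 0.52 ± 0.20 and was not called (limma adjusted p = 0.0773). The chains of collagen I, the main collagen of connective tissue, differed little at TS24: Col1a1 by -0.04 (95% interval -0.43 to 0.35) and Col1a2 by -0.03 (-0.45 to 0.38). Col3a1, the chain of collagen III, differed by -0.15 at TS24 and by -0.37 at TS34 (interval -0.80 to 0.06). Col2a1, the cartilage collagen, differed by 0.48 at TS24 (interval 0.08 to 0.89), with XX arrays of 7.71, 7.81 and 7.69 and XY arrays of 8.61, 8.06 and 7.98, and was not called (limma adjusted p = 0.107).

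Collagen IV, the network collagen of basement membranes, has 6 chains encoded by 3 pairs of neighbouring genes. Col4a1 and Col4a2, which form the most widespread collagen IV molecule, were higher in XY supporting cells at TS24. Col4a1 read 8.39, 7.72 and 7.67 in XX and 8.30, 8.78 and 8.85 in XY, so that XX replicate 1 lay above XY replicate 1. Col4a2 read 7.63, 7.71 and 7.28 in XX and 8.22, 7.98 and 8.22 in XY, with no overlap. The differences were 0.71 ± 0.22 (limma adjusted p = 0.0175) and 0.60 ± 0.20 (0.0293). Col4a1 kept its call without XX replicate 1 or XY replicate 1 and lost it without each of the other 4 arrays, with values of 0.59 to 0.95. Col4a2 kept its call without XX replicate 1 or 2 or XY replicate 2 and lost it without each of the other 3, with values of 0.47 to 0.69. At TS34 the differences were 0.21 and 0.27 and at TS13 -0.05 and 0.01, and neither gene was called. Col4a3, Col4a4, Col4a5 and Col4a6, whose chains form more restricted basement membranes, were not called at any stage, with Col4a5 at -0.26, -0.41 and -0.45.

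From TS13 to TS24 in XY supporting cells, Col4a1 rose by 0.91 ± 0.22 (limma adjusted p = 0.0022), Col27a1 by 0.75 ± 0.20 (0.00513) and Col4a2 by 0.61 ± 0.20 (0.0266). In all, 8 collagens rose and 1, Col12a1, fell over this step, where 16.8% of all genes were called, 15.1% as higher and 1.7% as lower. The median of all genes rose by 0.22 over it, and by 0.01 after quantile normalization. Relative to that median the rises were 1.47 in Col9a3, 1.06 in Col18a1, 0.71 in Col9a2, 0.69 in Col4a1, 0.65 in Col9a1, 0.53 in Col27a1 and 0.39 in Col4a2, and that of Col14a1 lay between 2.98 after quantile normalization and 3.22 as deposited. After quantile normalization Col27a1 (0.44, adjusted p = 0.0807) and Col4a2 (0.34, 0.218) were not called, and Col4a2 was also not called with each array centred on its median (0.45, 0.0648). Without XY replicate 1 at TS24, the highest array of Col9a1 and Col27a1, neither was called, at 0.54 and 0.61. Col4a2 kept its call without XY replicate 3 at TS13 or XY replicate 2 at TS24 and lost it without each of the other 4 arrays. From TS24 to TS34, 2 collagens fell in XY supporting cells (Col18a1 and Col9a2, above), where 1.06% of all genes were called, 0.905% as lower, and the median of all genes was -0.17. Markers of steroidogenic cells moved over the same steps in XY supporting cells. Cyp17a1 and Cyp11a1 rose by 1.68 and 1.18 from TS24 to TS34, and the mean of the 4 steroidogenic markers was 5.89 to 6.42 at TS24 and 6.91 to 7.21 at TS34. From TS13 to TS24 Cyp11a1 fell by 0.98 and Hsd3b1 rose by 0.68, and of 7 stromal markers 1 rose and 2 fell, of 8 endothelial markers 1 rose, of 4 erythroid markers 1 rose and of 8 germ cell markers 1 rose. Their part in the collagen changes was not tested. In XX supporting cells, 1 collagen rose from TS13 to TS24 (Col12a1), where 3.37% of genes were called, 2.6% as higher. Over that step Cyp11a1 fell by 1.80 and 1 of 7 stromal markers fell, and their part was not tested. From TS24 to TS34 limma called 0 of 44, where 0.643% were called, and 1 collagen had an unadjusted p under 0.05.

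Collagen VI, the filament collagen that links cells to the matrix, was not called in any of its 6 genes between XY and XX supporting cells. Col6a1 came closest, at TS34: its XX arrays read 8.29, 8.42 and 8.04 and its XY arrays 7.59, 7.71 and 7.78, without overlap, a difference of -0.56 ± 0.20 (limma adjusted p = 0.0568). Its partner chains Col6a2 and Col6a3 differed by -0.38 and 0.23 at TS34. In XX supporting cells Col6a1 read 7.44, 7.41 and 7.60 at TS13 and 8.26, 8.18 and 7.99 at TS24, a difference of 0.66 that was also not called (limma adjusted p = 0.0563). The 3 short chain collagens, the 4 transmembrane collagens and the 3 collagens of no larger class had 0 calls between XY and XX supporting cells at the 3 stages in limma. Over all uncalled collagens the differences lay between -0.26 and 0.21 at TS13, -0.41 and 0.48 at TS24, and -0.56 and 0.55 at TS34. Their 95% intervals reached at most from -0.96 to 0.96, so differences smaller than that are not excluded for the genes at the edges.

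A test of the change in the sex difference itself was called in supporting cells for 3 collagens between TS13 and TS34, 2 higher and 1 lower, where 4.88% of all genes were called, 3.11% as higher and 1.77% as lower. The difference of Col14a1 grew by 3.14 ± 0.33 (limma adjusted p = 7.34e-10) and that of Col9a3 by 1.19 ± 0.29 (0.00644). That of Col12a1 changed by -2.61 ± 0.34 (limma adjusted p = 1.55e-07). The change of Col18a1, 0.26, was not called. In germ cells limma called 0 collagens in this test, where 3.69% of all genes were called and 1 collagen had an unadjusted p under 0.05. The XY cells of TS13 and TS34 came from different lines, so stage and line cannot be told apart here.

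In germ cells limma called 0 of the 44 collagens between XY and XX at each stage. At TS13, 0.0285% of all genes were called and 0 collagens had an unadjusted p under 0.05. At TS24, 1.96% of genes were called and 5 collagens had an unadjusted p under 0.05. At TS34, 10.5% of genes were called and 0 collagens had an unadjusted p under 0.05. The differences ranged from -0.22 (Col6a4) to 0.38 (Col11a1) at TS13, from -0.65 (Col23a1) to 0.50 (Col6a4) at TS24, and from -0.38 (Col18a1) to 0.40 (Col26a1) at TS34. With array weights, 11 collagens were called as higher in XY germ cells at TS34, where 29.1% of all genes were called. The largest 95% intervals at TS24 ran from -1.09 to 0.95, wider than at the other stages because the XX group had 2 arrays.

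Between stages, 3 collagens fell in XX germ cells from TS24 to TS34, where 8.88% of all genes were called, 7.02% as lower. Col6a6, a collagen VI chain, read 8.27 and 8.16 at TS24 and 7.65, 7.40 and 7.19 at TS34, a difference of -0.80 ± 0.23 (limma adjusted p = 0.0188). Col11a2, a chain of the minor fibrillar collagen XI, read 8.03 and 8.23 at TS24 and 7.56, 7.31 and 7.18 at TS34, a difference of -0.78 ± 0.22 (0.0162). Col16a1, a FACIT, read 7.79 and 7.71 at TS24 and 7.24, 7.06 and 6.85 at TS34, a difference of -0.70 ± 0.22 (0.0369). The groups did not overlap, but TS24 had 2 arrays, and the median of all genes fell by 0.15 over this step. None of the 3 was called when germ cells were fitted alone with limma (adjusted p of 0.0574, 0.0662 and 0.11). Col16a1 was also not called after quantile normalization (adjusted p = 0.0517), nor Col6a6 with the mean of its probe sets (0.0622). Leaving out each of the 5 arrays in turn, Col6a6 and Col16a1 kept their calls in 1 fit each, without XX replicate 1 at TS34. Col11a2 kept its call in 2 fits, without that array or without XX replicate 1 at TS24. The count ranged from 0 to 6. It was 4 without XX replicate 1 at TS24, with Col11a2 as the 1 shared gene, and moved by over 1.5 times without each of the other 4 arrays. Over the same step the erythroid marker Hbb-y had a difference of -2.65 ± 0.82 (limma adjusted p = 0.0333). Those of Hba-x, Alas2 and Hbb-bh1 were -0.94, -0.15 and 0.20 and were not called. The part of these markers in the collagen changes was not tested. The other germ cell steps had 0 calls in limma: TS13 to TS24 in XX (1.21% of all genes called, 5 collagens at an unadjusted p under 0.05), and in XY TS13 to TS24 (1.5%, 2 collagens) and TS24 to TS34 (2.73%, 3 collagens). Without XX replicate 1 at TS24, 1 collagen was called in the first of these.

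Averaged over sexes and stages, 8 collagens were lower in germ cells than in supporting cells and 0 were higher by limma. Of all 17571 genes, 53.2% were called, 20.3% as lower, and 5785 genes were called as higher. Col12a1 was lower by a log2 difference of -2.40 ± 0.10 (limma adjusted p = 5.65e-27), Col14a1 by -1.13 ± 0.10, Col18a1 by -0.86 ± 0.09 and Col9a3 by -0.65 ± 0.09. Col6a1, Col4a2, Col4a1 and Col9a2 were lower by differences of -0.47, -0.43, -0.39 and -0.31. These averages join groups that differ. At TS34 the XX supporting cell arrays of Col14a1 read 6.49, 6.83 and 6.71, below the XX germ cell arrays of 6.93, 7.28 and 6.92. Those of Col18a1 and Col9a3 overlapped the XX germ cell arrays. In XY supporting cells at TS24 and TS34, Col12a1 lay at the germ cell level, while Col14a1, Col18a1 and Col9a3 lay above every germ cell array. Col12a1 in XX supporting cells did so too. The count was 19, all lower and including the 8, after quantile normalization or with each array centred on its median. In these fits 54.8% and 54.6% of all genes were called in either direction. Germ and supporting cells came from different lines, so cell type and line cannot be told apart. The sex difference at TS34 differed between supporting and germ cells in 5 collagens, where 12.8% of all genes were called, 6.94% as higher and 5.82% as lower: Col12a1 by -4.09 ± 0.34, Col14a1 by 3.90 ± 0.33, Col18a1 by 1.93 ± 0.29, Col9a3 by 1.34 ± 0.29 and Col6a1 by -0.81 ± 0.29. The limma adjusted p of Col6a1 was 0.0499. Col6a1 lost its call with no filter on dim genes (0.0515) and without 9 of the 12 arrays, keeping it without XX germ cell replicate 1, XY germ cell replicate 1 or XX supporting cell replicate 3.

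Genes that act on collagen were taken from 4 lists. Of 19 tested genes for collagen modification and folding, 1 was higher in XY supporting cells at TS13, 8 were higher and 1 lower at TS24, and 6 were higher at TS34. Of all genes, 1.84% were higher at TS13, 9.75% higher and 5.58% lower at TS24, and 8.24% higher and 5.74% lower at TS34. Plod2, the lysyl hydroxylase that acts on the ends of collagen chains, had the largest difference. Its XX arrays read 7.82, 7.69 and 7.08 at TS13 and 8.04, 7.22 and 7.05 at TS24, and its XY arrays read 9.68, 9.93 and 9.74, then 10.77, 11.10 and 10.92, with no overlap. XY was higher by 2.25 ± 0.22 at TS13 (limma adjusted p = 7.34e-11), by 3.49 ± 0.22 at TS24 and by 3.07 ± 0.22 at TS34. Colgalt1, which adds galactose to hydroxylysine, was higher by 1.44 at TS24 and 1.03 at TS34, and P3h4, a partner of the hydroxylase complex, by 1.31 and 1.27. The prolyl hydroxylase genes P4ha1, P4hb and P3h1 were higher at both stages, P4ha1 by 1.20 and 1.04. Plod1 and Plod3 were higher by 0.99 at TS24. The gene lower at TS24 was Creb3l1, a transcription factor of the secretory pathway, at -0.69. Serpinh1, the collagen chaperone, differed by 0.14 at TS24 and was not called. Over the 44 collagens and these 19 genes, the median differences at TS24 were 0.10 and 0.17, against 0.04 over all genes.

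**Figure D4:**
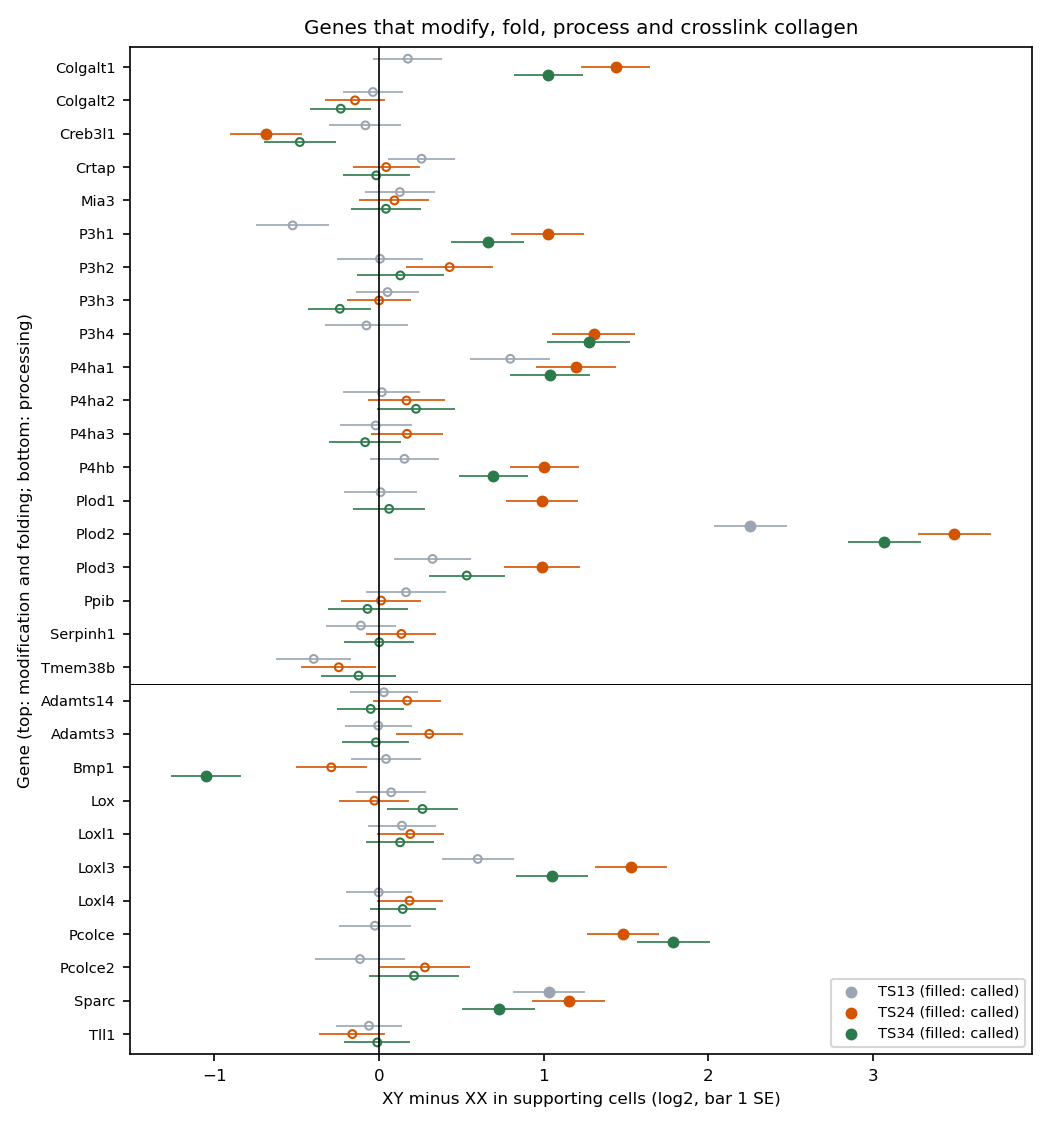
Difference between XY and XX supporting cells at TS13, TS24 and TS34 for genes of collagen modification and folding (top) and of procollagen processing and crosslinking (bottom), in log2 units with bars of 1 standard error and filled points for called differences. Plod2 lies furthest to the right at each stage, and Bmp1 at TS34 is the filled point furthest to the left, at -1.05.

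Of 11 tested genes for procollagen processing and crosslinking, 1 was higher at TS13, 3 at TS24, and at TS34 3 were higher and 1 lower, beside the same shares of all genes (9.75% higher at TS24, 8.24% higher and 5.74% lower at TS34). The medians of these 11 genes were 0.03, 0.19 and 0.15, against -0.07, 0.04 and -0.01 over all genes. Sparc, a collagen-binding matrix protein, was higher in XY at each stage, by 1.03, 1.15 and 0.73. Loxl3, a lysyl oxidase that crosslinks collagen, was higher by 1.53 at TS24 and 1.05 at TS34, and Pcolce, which enhances procollagen cleavage, by 1.48 and 1.79. Bmp1, a procollagen protease, was lower at TS34 by a difference of -1.05 ± 0.21 (limma adjusted p = 1.93e-04). Of 9 tested collagen receptors, Ddr1 was higher at the 3 stages, by 0.66, 0.67 and 0.99, Itga11 at TS24 and TS34, by 1.53 and 0.93, and Mrc2 was lower at TS24 and TS34, at -0.61 and -0.62. Of 7 tested collagenases and inhibitors, Mmp2, a gelatinase, was higher at the 3 stages, by 1.95, 3.04 and 2.42. Mmp14, its membrane-bound activator, was lower at TS24 and TS34, at -1.06 and -1.32, and so was the inhibitor Timp2, at -0.88 and -0.73. From the receptors and from the collagenases and inhibitors, 3 genes each are named, so these values do not give the share of either list that was called. The shares of all genes called in these comparisons were those given above.

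The library labelled XX germ cell replicate 3 at TS24, left out above, read higher than the other 2 arrays of its group in some collagens and lower in others. It read 9.39 for Col12a1, where the other 2 read 6.41 and 6.35. It read 8.42 for Col6a3 against 6.38 and 6.68, 9.21 for Col3a1 against 7.18 and 8.04, and 8.40 for Col1a2 against 7.12 and 7.61. These 4 of the 44 collagens were more than 1 log2 unit above the mean of the other 2, as were 9.12% of all genes tested. Col1a1 read 8.17 against 7.82 and 7.95. It read lower in Col18a1 (7.15 against 7.63 and 8.26) and in Col11a2 (7.37 against 8.03 and 8.23). In 7 of the 44 collagens (Col1a2, Col3a1, Col5a2, Col6a1, Col6a3, Col7a1 and Col12a1) it read higher than each of the 17 other germ cell arrays, as it did in 19.6% of all genes tested. With this library included, 6 collagens were called from TS24 to TS34 in XX germ cells, where 12.4% of all genes were called.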

How the data were processed

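Per the submitters' processing notes the deposited values were made by RMA; its version, its software and the definition of the probe sets were not stated in what was used here. Per the labels' protocols, 200 ng of RNA was labelled for each array. The deposited values are log2 expression, from 3.18 to 15.09, for 35557 probe sets on 36 arrays. A single gene symbol was given for 21789 of these probe sets, several for 1621 and none for 12147. Of those with a single symbol, 21698 were matched to RefSeq genes by Entrez ID and took the symbol given there, whether or not it differed. Per gene the probe set of highest mean over the arrays was used (999 genes had more than 1; among collagens Col6a5 and Col6a6 had 2).

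From these values, limma 3.58.1 in R 4.3.3 was fitted to 35 arrays with 1 mean per group and the spread shared by all groups (23 residual degrees of freedom), two-sided, with Benjamini-Hochberg adjustment over genes above the 25th percentile of an array's probe sets on at least 3 arrays. The 18 comparisons were sex within cell type and stage, steps between stages, changes of the sex difference, and cell type. A difference is in log2 units and ± is its standard error. The fit was tested on simulated data. Within groups, arrays correlated at 0.963 to 0.991, and at 0.922 at the lowest with the library left out.

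Named in a comparison were up to 6 called collagens in each direction, Col18a1, Col9a3, Col12a1 and partner chains of called genes; of each other list, the 3 largest differences. Other genes given with values were chosen after their values were seen. The members and lists were chosen with earlier results of these data known. Some genes of the lists were not analysed here, nor were interstitial and stromal samples. Alternatives were quantile normalization, centring each array on its median, a filter at the 50th percentile, no filter, all 36 arrays, the mean of a gene's probe sets, 1 cell type alone, array weights, the replicate number as a block, and leaving out each array.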

Additional observations from a re-analysis of the deposited data

Results flagged for a closer look

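In supporting cells the sex difference (XY minus XX) itself differed between TS13 and TS34, by a limma test of the difference between the differences, in Col12a1 (-2.61 ± 0.34 log2 units, adjusted p = 1.55e-07), Col14a1 (3.14 ± 0.33, 7.34e-10) and Col9a3 (1.19 ± 0.29, 0.00644). At TS34 it differed between supporting and germ cells in Col12a1 (-4.09 ± 0.34, 2.40e-13), Col14a1 (3.90 ± 0.33, 2.84e-13), Col18a1 (1.93 ± 0.29, 1.43e-06), Col9a3 (1.34 ± 0.29, 6.94e-04) and Col6a1 (-0.81 ± 0.29, 0.0499). The mouse line changes with stage or cell type in each of these tests and cannot be told apart from them.

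The XX germ cell library of TS24 that the comparisons did not use read higher than each of the 17 other germ cell arrays in 7 of the 44 collagens, as it did in 19.6% of all genes tested. It exceeded the mean of the other 2 arrays of its group by 3.02 log2 units in Col12a1, 1.89 in Col6a3, 1.60 in Col3a1 and 1.04 in Col1a2. Of the 44 collagens, 4 exceeded that mean by more than 1 unit, as did 9.12% of all genes tested, while Col18a1 and Col11a2 differed from it by -0.79 and -0.76. Its stromal marker mean was 9.15 and its germ cell marker mean 5.86, and their part in the collagen signal was not tested.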

How the results depend on the processing

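Of 48 called differences of single collagens, 419 values under alternatives other than leaving out an array were computed: 399 kept direction and call, 20 kept direction and lost the call, and 0 reversed. Of 160 counts, 138 stayed within 1.5 times. The counts that moved were as follows, and the cause was not tested. With quantile normalization or arrays centred on their median, XY against XX gave 1 call in germ cells at TS24 and 8 in supporting cells at TS34 (6 higher, 2 lower), and germ against supporting cells gave 19. Of all genes, quantile normalization called 4.21%, 17% and 54.8% in these comparisons, and centring called 4.17%, 17.2% and 54.6%. For TS24 to TS34 in XY supporting cells these gave 0 and 1, where 0.848% and 0.859% of all genes were called. For TS13 to TS24 in XX supporting cells quantile normalization gave 0, where 3.27% were called. With all 36 arrays, XY against XX germ cells at TS24 gave 1, XX germ cells from TS24 to TS34 gave 6, and XX supporting cells from TS13 to TS24 and XY from TS24 to TS34 gave 0. In that order, 4.35%, 12.4%, 1.68% and 0.42% of all genes were called. XX supporting cells from TS13 to TS24 gave 2 with the mean of all probe sets, 1 cell type alone or array weights, where 3.39%, 4.19% and 6.9% of all genes were called. XX germ cells from TS24 to TS34 gave 0 with 1 cell type alone, where 6.43% were called. Array weights gave 11 for germ cells at TS34, 17 for supporting cells at TS34 (10 higher, 7 lower) and 6 for XY supporting cells from TS24 to TS34. They gave 7 for the change in the sex difference from TS13 to TS34 in supporting cells, and 9 for supporting against germ cells at TS34. In that order, 29.1%, 32.5%, 4.9%, 17.7% and 30.9% of all genes were called.

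Reversed values, all of genes that were not called, were Col18a1 (0.025 with quantile normalization, 0.0049 centred, 0.13 with all 36 arrays), Col12a1 (0.036 with quantile normalization, 0.039 centred) and Col9a3 (-0.089 with all 36 arrays) in XX germ cells from TS24 to TS34. With quantile normalization Col9a3 in XX supporting cells from TS13 to TS24 was -0.041. Col12a1 in XY supporting cells from TS24 to TS34 was 0.026 with quantile normalization and 0.016 centred. Col9a1 in germ against supporting cells was -0.073, -0.086 and -0.0033 with quantile normalization, centred and with all 36 arrays. Col6a3 in the difference between supporting and germ cells at TS34 was -0.038 with array weights.

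Leaving out 1 array, the counts ranged from 0 to 6 for XX germ cells and 0 to 4 for XY supporting cells from TS24 to TS34, 0 to 2 for XX supporting cells and 0 to 1 for XX germ cells from TS13 to TS24, and 0 to 1 for germ cells at TS34 (1 without XY replicate 1). In XX germ cells from TS24 to TS34, Col18a1 ranged from -0.45 to 0.18, Col9a3 from -0.011 to 0.11 and Col11a1 from -0.069 to 0.14. Col9a1 in germ against supporting cells ranged from -0.027 to 0.058, and Col6a3 in supporting against germ cells at TS34 from -0.056 to 0.18. With the replicate number as a block, the call of Col6a1 in the latter comparison was lost (-0.81, adjusted p = 0.057), and no other call of a named collagen changed. The deviations of same-numbered arrays of different groups had median correlations of -0.004 to -0.012. Single pairs ranged from -0.51 to 0.52, and pairs with different numbers from -0.57 to 0.49. A median over all groups cannot show whether the numbers pair the arrays of some groups. With 3 arrays per group, the smaller differences lie near the limit of what can be called, and the background signal of each probe set is unknown.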
